A study of Mus musculus with 8 samples.

Results

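The genes described here encode the subunits of the mitochondrial respiratory chain and of ATP synthase, with a few of their assembly factors. They are the rows of the deposited expression table whose symbol begins with Nduf (complex I), Uqcr (complex III), Cox4 to Cox8 (complex IV) or Atp5 (complex V, the ATP synthase) and whose mean over the 8 libraries was at least 1 FPKM (fragments counted per length of transcript and per mapped fragments). There were 86 rows with such a symbol and 81 passed the minimum, out of 17753 genes that passed it in the whole table. By prefix, 41 belonged to complex I, 8 to complex III, 14 to complex IV and 18 to complex V. The 5 that did not pass were Ndufa4l2, Cox4i2, Cox7b2, Cox8b and Atp5l-ps1, which reached at most 4.92 FPKM in any library. Cox4i1, the usual isoform of the largest nuclear-encoded complex IV subunit, was not analysed here.

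The RNA came from microglia, the macrophages that reside in the central nervous system, sorted by flow cytometry from the optic nerves of C57BL/6 mice aged 3 months. FF mice carried the genotype Nf1 flox/flox, and FFC mice carried Nf1 flox/flox together with GFAP-Cre, so both genotypes had floxed Nf1 alleles and only FFC mice had the recombinase. Cre under the GFAP promoter is active in astrocytes and in cells that give rise to them, and the series describes the mice as lacking Nf1 in astrocytes, so the sorted cells were not the intended site of the deletion. Each genotype had 4 libraries, 2 from females and 2 from males, which the labels call biological replicates without stating whether a library came from 1 animal or several. Where they were not separate animals, the p-values measure only the spread between these samples, which may be technical.

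Complex I takes electrons from NADH and complex II takes them from succinate, and both pass them to ubiquinone. Complex III hands them on to cytochrome c, and complex IV transfers them to oxygen. Complexes I, III and IV pump protons across the inner mitochondrial membrane, and ATP synthase lets the protons back through its membrane part to turn the central stalk inside its catalytic head. Resting microglia rely largely on this oxidative route, and inflammatory activation of macrophages is known to shift metabolism toward glycolysis.

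Microglial identity was visible in every library: the 10 marker genes of microglia were all measured, and their summed level was 1693 to 5079 FPKM in FF against 3904 to 6536 FPKM in FFC. Nf1 itself was at 25.5 to 98.3 FPKM over the 8 libraries, which does not check a deletion in astrocytes, and Gfap, an astrocyte gene, was at 1.03 FPKM or less in each. FF 2 and FF 4 stood apart from the rest. They had the lowest summed FPKM over all genes with values (391924 and 367760, against 525184 to 700291 in the other libraries), the lowest median Spearman correlation with the other libraries (0.40 and 0.46, against 0.51 to 0.60), and the highest percentage of FPKM from chemosensory receptor genes (symbols Olfr, Vmn1r and Vmn2r), which microglia are not known to express (4.55% and 3.59%, against 0.734% to 1.86%). Depth is unknown, because the values come without read counts. The medians of gene groups between the genotypes are therefore also given without FF 2 and FF 4, and so is the difference of a single gene where it then changed sign or moved by over 1.5 times.

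Promoter sequences are shown because the nuclear genes of the respiratory chain are known to share binding sites for a few transcription factors, among them NRF1, the ETS family factor GABP, and YY1. RefSeq windows of 300 bases, 250 before and 50 after a transcript start in build GRCm38.p6, were found for 67 of the 81 genes. A string of letters was searched on both strands for each factor: the palindrome in capitals in the next fragments for NRF1, CCGGAAG for ETS factors and AAGATGGC for YY1, and matches may overlap. The NRF1 letters were in the windows of 6 of the 67 genes (8.96%), against 1.96% of the tested genes with a window and 1.07% of all genes with a window. The 6 fragments below run 5′ to 3′ on the gene's strand, with the NRF1 letters in capitals.
Uqcrc1 (chr9:108936668-108936697, plus strand): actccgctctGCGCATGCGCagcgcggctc
Ndufa11 (chr17:56717692-56717721, plus strand): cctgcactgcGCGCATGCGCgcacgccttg
Ndufaf4 (chr4:24897960-24897989, plus strand): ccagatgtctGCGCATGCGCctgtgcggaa
Cox6a1 (chr5:115349101-115349130, minus strand): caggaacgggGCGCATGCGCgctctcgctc
Atp5g2 (chr15:102671070-102671099, minus strand): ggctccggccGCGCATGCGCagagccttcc
Atp5k (chr5:108434430-108434459, minus strand): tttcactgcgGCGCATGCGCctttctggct

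In Uqcrc1 the NRF1 letters began 30 bases after the start, and in the other 5 genes they began 42 to 162 bases before it. The YY1 letters were in the windows of 10 of the 67 genes (14.9%), against 4.69% of the tested genes and 3.19% of all genes. Their place was alike between genes. Counting each window, 9 of 11 matches in these genes (81.8%) lay after the start and on the gene's own strand, 22 to 38 bases from it, and over all windows 279 of 927 matches (30.1%) lay after the start on that strand. Such fragments, with the YY1 letters in capitals, are shown for the complex I genes that hold them after the start.
Ndufa3 (chr7:3617385-3617412, plus strand): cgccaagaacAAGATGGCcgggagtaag
Ndufa9 (chr6:126849098-126849125, minus strand): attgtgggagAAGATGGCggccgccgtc
Ndufb8 (chr19:44555393-44555414, minus strand): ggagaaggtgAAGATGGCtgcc
Ndufc1 (chr3:51408916-51408943, minus strand): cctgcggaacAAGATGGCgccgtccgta
Ndufs4 (chr13:114388045-114388069, minus strand): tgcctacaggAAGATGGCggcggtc
Ndufs6 (chr13:73328433-73328459, minus strand): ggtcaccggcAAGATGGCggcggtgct
Ndufs7 (chr10:80249463-80249490, plus strand): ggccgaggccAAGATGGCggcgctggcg

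The ETS letters were in 15 of the 67 windows (22.4%), close to the 17.2% of tested genes and above the 9.93% of all genes. At least 1 of the 3 strings was present in 28 of the 67 genes (41.8%), in 22.2% of the tested genes and in 13.4% of all genes. A match of letters is a description of the sequence and does not show that a factor binds there. The 2 genes with the smallest p-values in complexes III and V are shown whole. Uqcrc1 has the NRF1 letters near its end, in capitals, and Atp5d, whose later of 2 windows is given, has none of the 3 strings.
Uqcrc1 (chr9:108936398-108936697, plus strand): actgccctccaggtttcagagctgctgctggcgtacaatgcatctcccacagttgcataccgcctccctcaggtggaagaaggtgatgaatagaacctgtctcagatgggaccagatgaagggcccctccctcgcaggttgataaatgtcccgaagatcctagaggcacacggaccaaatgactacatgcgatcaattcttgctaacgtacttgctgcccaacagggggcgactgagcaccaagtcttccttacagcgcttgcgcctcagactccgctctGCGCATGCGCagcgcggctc
Atp5d (chr10:80142065-80142364, plus strand): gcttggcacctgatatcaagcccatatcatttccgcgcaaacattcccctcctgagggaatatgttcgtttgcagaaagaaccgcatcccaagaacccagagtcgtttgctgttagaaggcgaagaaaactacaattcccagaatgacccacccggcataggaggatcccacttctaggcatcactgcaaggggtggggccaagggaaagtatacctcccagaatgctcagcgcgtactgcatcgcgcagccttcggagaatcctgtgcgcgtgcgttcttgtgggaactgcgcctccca

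Most genes of the 4 complexes had a higher mean in FFC than in FF, but no single gene passed the test. The mean of log2(FPKM + 1) was higher in FFC for 65 of 81 genes, and the median difference (FFC minus FF) was 0.92 on this log2 scale, beside 0.19 for all tested genes, of which 56.7% had a higher mean in FFC. By limma with Benjamini-Hochberg adjustment over the 17753 tested genes, 0 of the 81 were called at an adjusted p under 0.05, and 0.0% of all genes were. The smallest adjusted p among the 81 was 0.546 (Atp5d), and the smallest over all genes was 0.382. At an unadjusted limma p under 0.05, 16 of the 81 were higher in FFC and 0 lower, against 4.52% of all tested genes higher and 1.94% lower. The 81 genes were more abundant, with a median of 37.7 FPKM against 6.73 FPKM for all tested genes. On log2(FPKM + 1), differences between small values come out compressed, so part of the gap between the 2 sets can reflect level. No comparison with all tested genes given here was matched for level. In bulk samples such as these, fewer microglia among the sorted cells and less RNA per cell cannot be told apart.

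The libraries behind these differences were FF 2 and FF 4 on the low side and FFC 4 on the high side. The median level of the 81 genes was 35.8, 6.92, 30.6 and 12.5 FPKM in the FF libraries by number, against 42.6, 26.5, 28.97 and 64.4 FPKM in the FFC libraries. FF 1 and FF 3 thus lay within the range of the FFC libraries, so the genotypes overlapped. FF 2 held the lowest of the 8 values for 30 genes and FF 4 for 26, while FFC 4 held the highest for 32 and FF 1 for 15. Values below 1 FPKM were found for 16 genes in FF 2, for 10 in FF 4 and for 2 to 6 in each other library. Without FF 2 and FF 4, 53 of the 81 had a higher mean in FFC, and the median difference was 0.25, beside 0.07 for all tested genes.

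**Figure D1:**
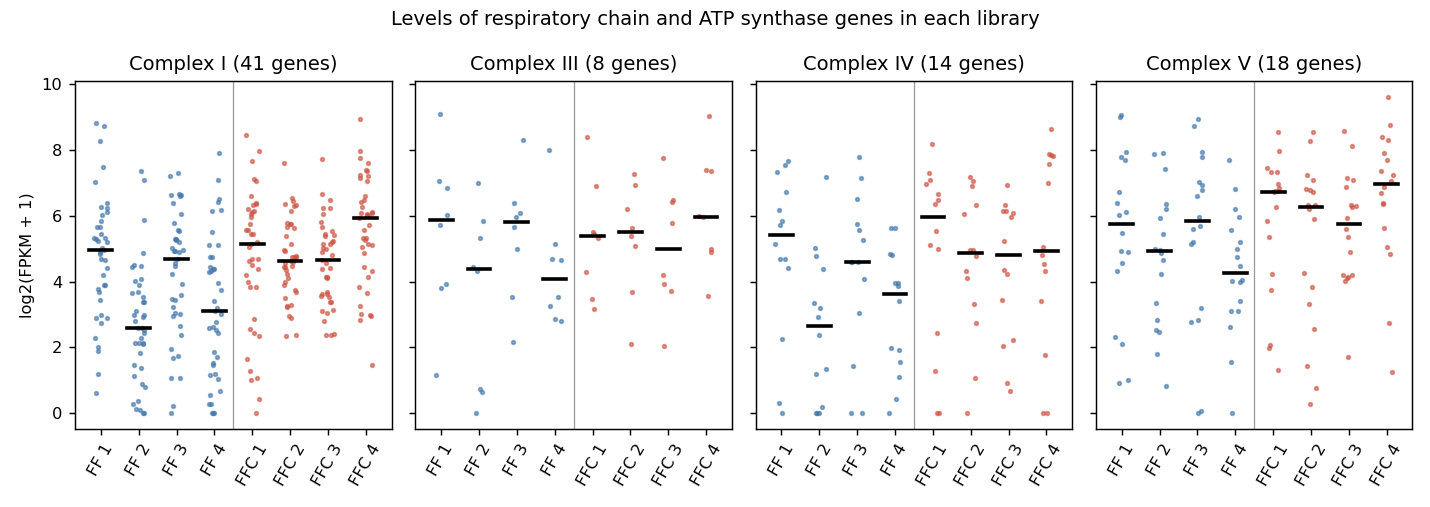
Level of each gene as log2(FPKM + 1), on the vertical axis, in each of the 8 libraries, by complex; each point is a gene, blue for FF and red for FFC, and the black bar is the median over the genes of that complex. In complexes I and IV the bars of FF 2 and FF 4 sit below those of the other 6 libraries, and the bar of FF 1 lies within the range of the FFC libraries.

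The same 2 FF libraries were low for other abundant genes of the cells. The summed microglia markers were 1693 FPKM in FF 2 and 2769 FPKM in FF 4, the lowest of the 8 libraries, and the median difference of these markers between the genotypes was 0.65, and -0.06 without FF 2 and FF 4. Among the 78 tested cytosolic ribosomal protein genes, 76 were higher by mean in FFC (median difference 0.62), and the median was -0.21 without those 2 libraries. For 78 mitochondrial ribosomal protein genes the median was 0.58, and 0.12 without them. Summed markers of endothelial cells (20.2 to 45.1 FPKM in FF, 4.59 to 18.8 FPKM in FFC), of neurons (2.76 to 5.34 and 0.870 to 1.85 FPKM) and of erythroid cells (65.4 to 241 and 33.2 to 63.9 FPKM) were lower in every FFC library than in every FF library. The single markers were less clear. Of 6 endothelial markers 5 had a lower mean in FFC, and 0 were lower without overlap. All 5 tested erythroid markers had a lower mean, and 1 was lower without overlap, against 1.29% of all tested genes. No neuron marker reached a mean of 1 FPKM. Summed astrocyte markers (117 to 326 and 91.8 to 189 FPKM), oligodendrocyte markers (up to 44.0 and up to 50.5 FPKM) and mural cell and fibroblast markers (3.59 to 89.7 and 5.37 to 15.5 FPKM) overlapped between the genotypes. T cell markers ranged from 31.1 to 464 FPKM in FF and from 5.24 to 47.5 FPKM in FFC, and neutrophil markers from 193 to 2456 and from 3.17 to 956 FPKM. The part of these markers in the differences of the respiratory genes was not tested.

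The library titles carry the months Nov and Dec, and genotype and month were unequally mixed. FF 1, FF 2, FF 3 and FFC 1 have Nov in the title, and FF 4, FFC 2, FFC 3 and FFC 4 have Dec. Within Nov the median difference of the 81 genes was 0.77, beside -0.25 for all tested genes, and within Dec it was 1.43, beside 0.57. Each of these rests on 1 library of one genotype. Within females the median was 1.01, beside 0.08 for all tested genes, and within males it was 0.79, beside 0.22. The female comparison holds FF 4 and the male comparison holds FF 2. By limma's interaction of genotype and sex 0 genes of the table were called, with 567 genes at an unadjusted p under 0.05, 3 of them respiratory.

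Only 5 genes had all 4 FFC values above all 4 FF values: Atp5d and Atp5a1 of ATP synthase, Uqcrc1 of complex III, Cox6a2 of complex IV and Ndufa12 of complex I. No gene had all 4 below. Among all tested genes 3.05% were without overlap in the upward direction and 1.29% in the downward direction. For each of the 5 the exact permutation p of the log2 difference was 0.0286, two-sided and unadjusted. This is the smallest that the 70 arrangements of 4 and 4 libraries can give. Every gene without overlap has it by construction, so it is no further evidence for these 5. Their adjusted limma p-values lay between 0.546 and 0.759, so none was called.

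Atp5d (ENSMUSG00000003072; chr10:79601377-79608563 in mm9) encodes the delta subunit of the central stalk. It was at 22.6, 9.25, 34.0 and 7.66 FPKM in FF 1 to FF 4, against 114, 58.9, 78.0 and 163 FPKM in FFC 1 to FFC 4. The lowest FFC library, FFC 2, stood well above the highest FF library, FF 3. The means were 18.4 ± 12.4 FPKM in FF against 104 ± 45.9 FPKM in FFC (SD, n = 4 each), and the log2 difference was 2.56 ± 0.67 (SE). It was 1.76 without FF 2 and FF 4, 3.26 within females and 1.86 within males.

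Uqcrc1 (ENSMUSG00000025651; chr9:108838661-108851685 in mm9) encodes one of the core proteins of complex III, which lie on its matrix side. Its values were 12.8, 0.679, 10.6 and 5.97 FPKM in FF against 42.6, 48.4, 17.2 and 28.5 FPKM in FFC. FF 2 was far below the other FF libraries, and FFC 3 came closest to them. The log2 difference was 2.32 ± 0.81 (SE), and 1.37 without FF 2 and FF 4. Uqcrc2, which encodes the partner core protein, differed little between genotypes: 51.4, 55.8, 49.5 and 24.1 FPKM in FF against 44.1, 40.8, 54.0 and 62.3 FPKM in FFC, a log2 difference of 0.20 ± 0.57 (SE) that became -0.023 without FF 2 and FF 4.

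Cox6a2 (ENSMUSG00000030785; chr7:135348950-135349880 in mm9) encodes the isoform of subunit 6a that is known from heart and skeletal muscle. It was listed at 0 in FF 1 and FF 2, at 1.71 FPKM in FF 3 and at 0.344 FPKM in FF 4, and stood at 30.9, 19.0, 3.64 and 2.38 FPKM in FFC 1 to FFC 4. FFC 1 and FFC 2 were high, and FFC 3 and FFC 4 were low but above FF 3. As a share of the FPKM of Cox6a1 and Cox6a2 together it was at most 0.780% in FF and 0.598% to 18.5% in FFC, and Cox6a1, the widely expressed isoform, held the rest. A 0 in this table can be a failed estimate, so no fold is given.

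Atp5a1 (ENSMUSG00000025428) encodes the alpha subunit of the catalytic head. It was at 82.7, 42.9, 95.5 and 14.9 FPKM in FF against 104, 108, 115 and 239 FPKM in FFC. FF 3 and FFC 1 nearly met, and FFC 4 stood far above the rest. The log2 difference was 1.46 ± 0.67 (SE), and 0.57 without FF 2 and FF 4. Ndufa12 (ENSMUSG00000020022; chr10:93661700-93684188 in mm9), an accessory subunit of complex I, was low throughout, at 1.29, 3.88, 2.36 and 2.63 FPKM in FF against 4.86, 8.59, 4.34 and 6.85 FPKM in FFC. Its log2 difference was 1.03 ± 0.74 (SE), and here leaving out FF 2 and FF 4 gave the larger value of 1.33.

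**Figure D2:**
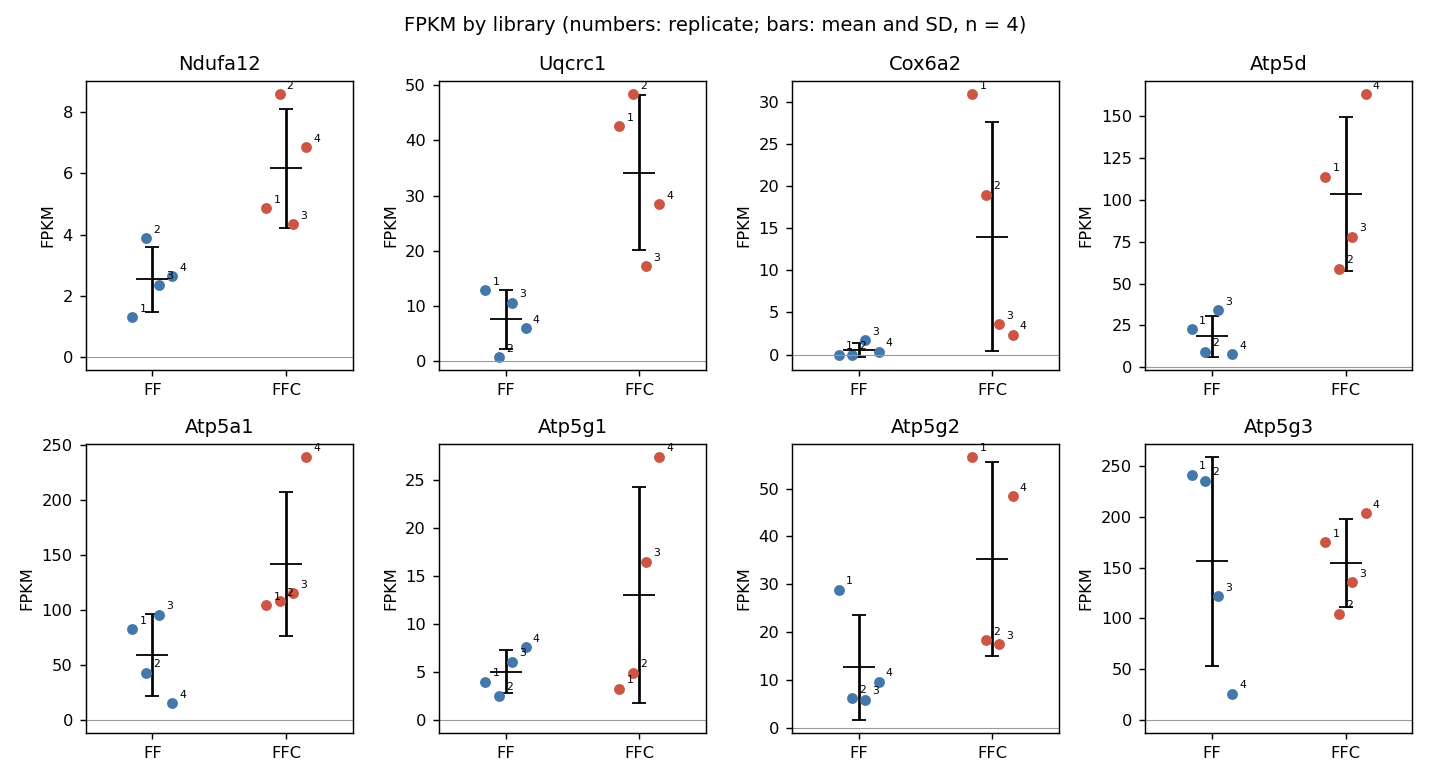
FPKM, on the vertical axis, in each library of FF (blue) and FFC (red) for the 5 genes without overlap between the genotypes and for the 3 genes of the ATP synthase c subunit; numbers are replicates, and the bars give the mean and SD of 4 libraries. Atp5d shows the clearest gap, Cox6a2 owes its FFC mean to FFC 1 and FFC 2, and Atp5g3 overlaps fully.

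Without FF 2 and FF 4 the remaining libraries showed both directions. All FFC values exceeded those of FF 1 and FF 3 for 7 of the 81 genes, against 7.22% of all tested genes, and lay below them for 3, against 6.4%. The 7 were the 5 genes above with Uqcrfs1 and Atp5l2, and the 3 were Uqcrq, Uqcr11 and Ndufs8. Ndufs8, an iron-sulfur subunit of complex I, shows how much FF 2 and FF 4 decide: it was at 36.2, 0.0971, 37.1 and 0.470 FPKM in FF against 19.9, 29.7, 11.4 and 33.4 FPKM in FFC, so its difference was 1.73 with all libraries and -0.72 without the 2.

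In complex I, 33 of 41 genes had a higher mean in FFC, and the median difference was 1.12, or 0.46 without FF 2 and FF 4. At an unadjusted limma p under 0.05, 9 of the 41 were higher and 0 lower, and none was called. Of all tested genes 4.52% were higher and 1.94% lower at that p. The roles below were assigned with the values known, and differences between roles were not tested.

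The 7 genes of the catalytic core, which carry the flavin, the iron-sulfur clusters and the ubiquinone site, had a median difference of 1.43, with 6 of 7 higher, and a median of 0.46, with 4 of 7 higher, without FF 2 and FF 4. Ndufv1, the subunit that oxidizes NADH, was at 14.0, 9.42, 38.1 and 14.6 FPKM in FF against 42.4, 26.1, 55.3 and 51.9 FPKM in FFC, so FF 3 lay inside the FFC range while the other 3 FF libraries lay below it. Ndufs7, which holds the last iron-sulfur cluster before ubiquinone, was at 56.4, 6.92, 146 and 135 FPKM in FF against 68.3, 193, 208 and 249 FPKM in FFC, with FFC 1 inside the FF range. Its difference was 1.57 ± 0.87 (SE), and 0.83 without FF 2 and FF 4. Ndufs3 was at 37.8, 4.44, 9.93 and 9.53 FPKM in FF against 13.3, 11.9, 41.0 and 165 FPKM in FFC, and FF 1 exceeded FFC 1 and FFC 2.

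The partner of Ndufv1 in NADH oxidation, Ndufv2, differed by 1.50 ± 0.84 (SE) on the log2 scale, with FF 1 and FFC 4 both at 39.3 FPKM, and by 0.46 without FF 2 and FF 4. Ndufs1, the largest iron-sulfur subunit, was the exception with a lower mean: 6.96, 3.33, 38.5 and 19.7 FPKM in FF against 0.993, 15.0, 20.4 and 20.8 FPKM in FFC. There 1 library, FFC 1, lay far below the other FFC libraries, and the difference of -0.23 ± 0.97 (SE) became 0.59 without it, 0.31 without FF 3 and -0.68 without FF 2 and FF 4.

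Among the accessory subunits of complex I, those named Ndufa and Ndufb differed in their medians. For the 13 Ndufa genes other than Ndufa4 and including Ndufab1, the acyl carrier protein, the median difference was 1.43, with 11 higher, and it was 0.46 without FF 2 and FF 4. For the 10 Ndufb genes it was 0.51, with 7 higher, and -0.76 without those 2 libraries, when 3 of 10 were higher. Many Ndufb subunits sit in the distal part of the membrane arm. This difference between the series was seen in the data and was not tested.

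Ndufb7, for example, was at 14.0, 5.01, 22.4 and 25.8 FPKM in FF against 83.0, 79.7, 16.2 and 68.2 FPKM in FFC, with only FFC 3 inside the FF range, and its difference stayed at 1.51 without FF 2 and FF 4. Ndufb8 was at 130, 162, 97.5 and 4.72 FPKM in FF, and at 137, 49.1, 36.1 and 63.6 FPKM in FFC, where FF 4 alone was low. Its difference was 0.12 with all libraries and -0.83 without FF 2 and FF 4. Ndufb11, the gene of the series with the lowest difference, was at 67.8, 28.0, 29.4 and 69.0 FPKM in FF against 23.7, 20.7, 16.7 and 46.4 FPKM in FFC, a log2 difference of -0.81 ± 0.64 (SE) that did not pass the test.

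Ndufa11, a subunit of the membrane arm, was at 6.39, 0.0771, 2.21 and 0 FPKM in FF against 13.2, 6.36, 7.53 and 34.3 FPKM in FFC, so FF 1 just exceeded FFC 2. Ndufa9, which lies near the ubiquinone site, was at 9.94, 21.6, 53.5 and 44.6 FPKM in FF against 52.2, 69.7, 73.9 and 192 FPKM in FFC, with FF 3 just above FFC 1, and its difference of 1.62 ± 0.69 (SE) was 1.81 without FF 2 and FF 4. Ndufa10 was among the most even genes: 20.4, 21.4, 21.4 and 18.9 FPKM in FF against 14.9, 10.4, 28.97 and 19.0 FPKM in FFC. Ndufa8 had the lowest difference of complex I (-0.88 ± 0.77, SE, and -1.51 without FF 2 and FF 4). It was at 30.0, 5.92, 10.1 and 7.56 FPKM in FF against 4.36, 4.04, 4.18 and 11.7 FPKM in FFC, where 3 FFC libraries were below every FF library and FFC 4 was not.

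The 4 remaining accessory genes, Ndufs4, Ndufs5, Ndufs6 and Ndufv3, varied widely between libraries. Ndufs5 was at 0.536, 3.40, 65.6 and 0 FPKM in FF against 64.7, 54.3, 9.50 and 146 FPKM in FFC, and Ndufs4 reached 239 FPKM in FF 4 against 3.91 to 42.6 FPKM elsewhere. FF 4 held the highest Ndufs4 value, while Ndufs5 was listed at 0 there. Of the pair Ndufc1 and Ndufc2, the more abundant Ndufc2 was at 305, 57.0, 156 and 71.1 FPKM in FF against 131, 53.0, 99.6 and 215 FPKM in FFC, with FF 1 highest and no order by genotype. The 4 Ndufaf genes, which encode assembly factors and no part of the finished complex, were each higher by mean in FFC (median difference 1.68, and 1.11 without FF 2 and FF 4). Ndufaf3 was at 24.4, 0, 1.11 and 1.76 FPKM in FF against 79.4, 23.1, 42.3 and 6.78 FPKM in FFC, with FF 1 inside the FFC range. Ndufa4, named for complex I and since assigned to complex IV, was at 445, 134, 96.6 and 33.2 FPKM in FF against 200, 92.7, 88.4 and 494 FPKM in FFC, which overlapped widely.

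**Figure D3:**
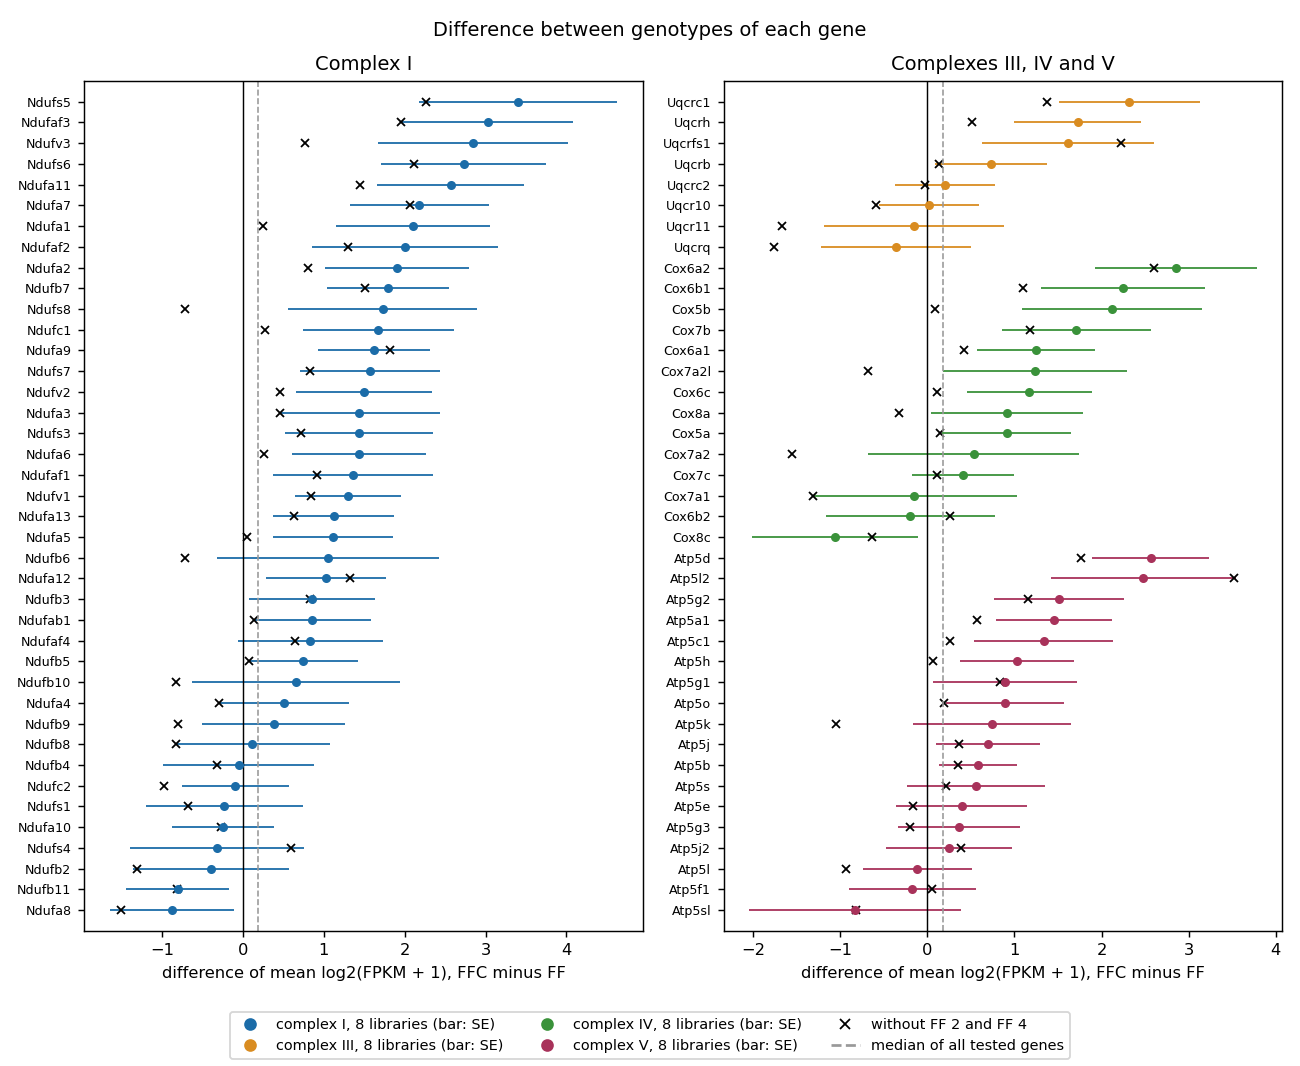
Difference between the genotypes of each gene (FFC minus FF, mean log2(FPKM + 1)) on the horizontal axis, with 1 row for each of 80 genes; coloured points use 8 libraries and bars are standard errors, black crosses leave out FF 2 and FF 4, and the dashed line is the median of all tested genes. Most points lie right of 0, 64 of 80, and many crosses lie nearer to 0 than their points.

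By these prefixes, complex III had the lowest median of the 4 complexes, 0.47, with 6 of 8 genes higher in FFC. It was 0.05 without FF 2 and FF 4. Cyc1, cytochrome c1 of complex III, lies outside the prefix and differed by 1.48, or 1.39 without FF 2 and FF 4. The rank therefore holds for the Uqcr genes and not for the whole complex. No test was made between complexes. Uqcrh, the hinge protein that meets cytochrome c1, was at 114, 20.6, 61.0 and 10.4 FPKM in FF against 118, 121, 88.1 and 163 FPKM in FFC, with only FF 1 inside the FFC range. Uqcrfs1, the Rieske iron-sulfur protein, was at 1.25, 0.557, 3.48 and 33.9 FPKM in FF against 8.00, 11.8, 12.1 and 31.0 FPKM in FFC. FF 4 was the highest of all 8 there, although it was low for many other genes.

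The small subunits Uqcrq and Uqcr11 had lower means in FFC. Uqcrq was at 132, 18.8, 67.4 and 8.50 FPKM in FF against 18.7, 33.1, 14.2 and 60.7 FPKM in FFC, and its difference was -0.36 with all libraries and -1.76 without FF 2 and FF 4. Uqcr11 went from -0.15 to -1.66 in the same way. Uqcr10, the most abundant gene of the complex, was level: 309 ± 174 FPKM in FF against 306 ± 163 FPKM in FFC (SD, n = 4 each).

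In complex IV, the 9 widely expressed subunits were all higher by mean in FFC (median difference 1.17), and 7 of 9 had one without FF 2 and FF 4, with a median of 0.11. Over all 14 genes the median was 1.04, and 0.11 without those 2 libraries. Cox5b, a subunit on the matrix side, was at 158, 9.24, 52.6 and 1.95 FPKM in FF against 88.4, 78.8, 66.9 and 190 FPKM in FFC. Cox5a, its neighbour, was at 104, 19.8, 46.0 and 27.3 FPKM in FF against 81.1, 30.2, 60.8 and 227 FPKM in FFC. In both, FF 1 was within the FFC range and FF 2 and FF 4 were below it.

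Cox6b1, which faces the intermembrane space, was at 203, 4.15, 15.9 and 26.8 FPKM in FF against 99.9, 144, 70.0 and 235 FPKM in FFC, so 3 of 4 FF libraries were below every FFC library and FF 1 was not. Its difference was 2.24 ± 0.94 (SE), and 1.09 without FF 2 and FF 4. Cox7c was more even, at 184, 144, 89.2 and 48.6 FPKM in FF against 157, 133, 79.0 and 222 FPKM in FFC. Cox7a2l, which acts in joining complexes III and IV into supercomplexes, differed by 1.23 with all libraries and by -0.68 without FF 2 and FF 4.

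The isoforms known from muscle or testis were low and uneven, Cox6a2 described above included. Cox7a1, the muscle isoform of subunit 7a, was listed at 0 in 5 libraries and reached 24.5 FPKM in FF 1 and 9.64 FPKM in FFC 4. Cox8c, known from testis, was listed at 0 in 4 libraries and reached 14.7 FPKM in FF 4. Cox6b2, also known from testis, was at 0.237, 8.19, 7.26 and 2.92 FPKM in FF against 4.36, 8.88, 3.07 and 0 FPKM in FFC. None of these 3 had a lower or higher level in one genotype throughout. The only other gene listed at 0 in more than 1 library was Ndufb6 of complex I (FF 4 and FFC 1).

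ATP synthase had 15 of 18 genes higher by mean in FFC and a median difference of 0.72, or 0.24 without FF 2 and FF 4. The 6 genes of the head and stalk, counting Atp5o, all had a higher mean, with a median of 1.11, and 7 of the 9 genes of the membrane part did, with a median of 0.70. Without FF 2 and FF 4 these medians were 0.30 and 0.07. Atp5h and Atp5f1 of the outer stalk were counted with the membrane part and Atp5o with the head and stalk, so both medians depend on this split. Atp5b, the catalytic beta subunit, was the most abundant of the 81 genes and varied least between libraries of a genotype: 220, 239, 418 and 205 FPKM in FF against 375, 371, 382 and 427 FPKM in FFC. FF 3 lay inside the narrow FFC range and the other FF libraries below it, and the difference of 0.58 ± 0.44 (SE) did not pass the test and was 0.35 without FF 2 and FF 4. FF 2, low for most of the 81 genes, was level with FF 1 here.

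Atp5c1, the gamma subunit that turns in the head, was at 64.3, 4.56, 61.5 and 35.7 FPKM in FF against 75.2, 78.4, 47.0 and 115 FPKM in FFC. FF 1 and FF 3 overlapped FFC 3. Atp5o, the stalk subunit also called OSCP, was at 68.0, 80.7, 129 and 15.0 FPKM in FF against 106, 111, 75.1 and 150 FPKM in FFC. Only FF 4 stood far below the rest in that gene.

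The c ring, through which protons pass, is built from 1 mature protein that the 3 genes Atp5g1, Atp5g2 and Atp5g3 all encode. Atp5g3 held most of their FPKM, 59.9% to 96.5% in FF and 72.9% to 81.8% in FFC. It was at 241, 236, 122 and 25.6 FPKM in FF against 175, 105, 136 and 204 FPKM in FFC, with full overlap. Atp5g2 was at 28.9, 6.11, 5.82 and 9.60 FPKM in FF against 56.7, 18.3, 17.4 and 48.4 FPKM in FFC, with FF 1 alone inside the FFC range, and Atp5g1 ran from 2.48 to 7.57 FPKM in FF and from 3.24 to 27.4 FPKM in FFC. The sources used here do not say how reads shared by near-identical copies were divided, so levels of genes with close copies, these 3 among them, are uncertain.

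Among the genes counted with the membrane part, Atp5h, subunit d of the outer stalk, averaged 234 ± 210 FPKM in FF against 404 ± 253 FPKM in FFC (SD, n = 4 each). FF 1, at 536 FPKM, exceeded FFC 1, FFC 2 and FFC 3 (250, 308 and 275 FPKM). The log2 difference of Atp5h was 1.03 ± 0.65 (SE), and 0.071 without FF 2 and FF 4. Atp5f1, subunit b of the same stalk, had a difference of -0.17 ± 0.73 (SE), and Atp5l, subunit g, one of -0.11 ± 0.62 (SE). Leaving out FF 2 and FF 4 gave 0.056 for Atp5f1 and -0.94 for Atp5l. Of the 3 genes that carry the prefix without a place in this scheme, Atp5s was the lowest of all 81 with a mean of 1.37 FPKM. Atp5sl ran from 0.898 to 46.9 FPKM in FF and from 0.715 to 28.7 FPKM in FFC, with a difference of -0.83 ± 1.22 (SE).

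**Figure D4:**
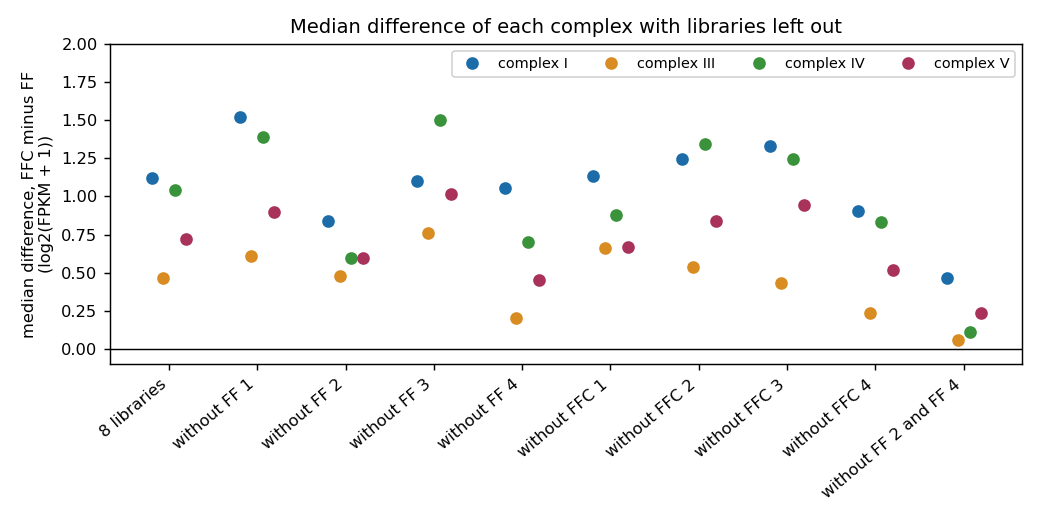
Median difference of each complex (FFC minus FF, log2(FPKM + 1)), on the vertical axis, with all 8 libraries, with each library left out, and with FF 2 and FF 4 left out together. All medians stay above 0, complex III ranges from 0.05 to 0.76, and those of all 4 complexes are lowest when both FF 2 and FF 4 are left out.

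Pooled over both genotypes, the median spread of the 81 genes was that of all tested genes. The 2 sets were at unlike levels (median 37.7 FPKM against 6.73 FPKM). The median standard deviation between libraries of a genotype was 1.23 on the log2 scale for them and 1.23 for all tested genes. Over the FF libraries the median standard deviation of the 81 was 1.33 and over the FFC libraries 0.83, against 1.28 and 0.96 for all tested genes. Complex V had the lowest spread (0.97) and complex I the highest (1.36). The most even genes were Atp5b (0.34) and Ndufa10 (0.42), and the least even were Ndufb6 (2.51) and Ndufb10 (2.45).

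Other genes of the pathway also had higher means in FFC in most cases with all 8 libraries, and none was called by limma. All 4 genes of complex II did, with a median difference of 0.90, but 3 of 4 did without FF 2 and FF 4, with a median of 0.42. Sdhb, its iron-sulfur subunit, was at 2.11, 20.2, 67.1 and 8.17 FPKM in FF against 40.3, 28.2, 20.4 and 50.9 FPKM in FFC. Cyc1, cytochrome c1 of complex III, was without overlap, higher in FFC: 8.94, 19.4, 14.0 and 4.72 FPKM in FF against 32.3, 39.2, 30.0 and 24.3 FPKM in FFC, a difference of 1.48 ± 0.67 (SE) with an adjusted limma p of 0.756. Cycs, the electron carrier cytochrome c, differed by 1.34 ± 0.77 (SE), and by 0.84 without FF 2 and FF 4.

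Of 24 tested assembly factors outside the prefixes, 17 had a higher mean, with a median of 0.67, and 15 had one without FF 2 and FF 4, with a median of 0.48. Tmem126a was at 3.87, 1.61, 11.2 and 2.57 FPKM in FF against 78.3, 7.17, 33.0 and 85.0 FPKM in FFC, and FF 3 exceeded FFC 2. Of 8 genes for the ATP synthase inhibitor and mitochondrial carriers and channels, 6 did, with a median of 0.66, but without FF 2 and FF 4 only 4 did and the median was -0.0014. Vdac2, an outer membrane channel, was likewise higher without overlap: 84.3, 43.1, 80.2 and 93.0 FPKM in FF against 285, 295, 138 and 199 FPKM in FFC (1.59 ± 0.53, SE, adjusted limma p 0.698). Atpif1, which blocks reverse rotation of ATP synthase, differed by 1.31 ± 0.64 (SE), with FF 2 above FFC 3.

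The citric acid cycle had 10 of 12 genes with a higher mean and a median of 0.69. Leaving out FF 2 and FF 4 brought this to 8 of 12 and a median of 0.099. Suclg1, a subunit of succinyl-CoA ligase, differed by 2.16 ± 0.81 (SE). Among 12 regulators of respiratory genes 9 had a higher mean, with a median of 0.54, but without FF 2 and FF 4 this held for 6 of 12 and the median was 0.019. Nrf1 itself ran from 0.703 to 19.7 FPKM in FF and from 2.30 to 17.5 FPKM in FFC, and Ppargc1b, a coactivator, was at 1.33 FPKM or less in FF and at 0.197 to 19.8 FPKM in FFC. The respiratory subunits that mitochondrial DNA encodes could not be set beside these genes, since 32 of its 37 genes were listed at 0 in every library.

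Differences between the genotypes were also set beside the promoter letters shown above. The 6 genes with the NRF1 letters had a median difference of 1.38 (0.74 to 2.57), and the 61 without them had one of 1.03 (-0.88 to 3.40). For the YY1 letters the medians were 1.07 in 10 genes and 1.03 in 57, and for the ETS letters 1.05 in 15 and 0.97 in 52. With FF 2 and FF 4 left out, the medians with and without the letters were 0.90 and 0.26 for NRF1, 0.43 and 0.25 for YY1, and 0.071 and 0.27 for ETS. With all libraries the ranges overlapped in each case, and no test was made.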

How the data were processed

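The authors deposited 1 table of FPKM values with 37447 rows and a column for each of 8 libraries. Build mm9 and the tools Cufflinks 2.0.2, Bowtie2 2.0.0, TopHat2 2.0.4 and CASAVA 1.8.2 come from the submitters' processing notes, and the sources used here do not give their roles or settings or the annotation. Per the labels' protocols, the Ovation method made the cDNA, and amplification can lose or enlarge single transcripts. Rows with a missing value (447) were left out. FPKM gives no read counts, so depth and counting error are unknown. Starts in the table count from 0 (21680 of 32797 genes then match GENCODE lengths, against 420) and are printed from 1.

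Values were used as log2(FPKM + 1), which understates the change of low genes, for genes whose mean reached 1 FPKM. Genotypes were compared with limma 3.58.1 in R 4.3.3 (empirical Bayes with trend, two-sided, Benjamini-Hochberg over 17753 genes, threshold 0.05), tested on simulated data, and single genes also with exact permutation over 70 arrangements. Further steps used pandas 2.3.3, numpy 2.4.6, scipy 1.17.1, and for figures matplotlib 3.10.9, in Python 3.11.15. Promoter windows are RefSeq's in GRCm38.p6. They were read on the gene's strand, since 82.9% of minus-strand genes had the letters after the start as written in a GENCODE transcript and 0.00972% had their reverse complement. No mm9 coordinate was converted.

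The members and lists were chosen with earlier results of these data known. Named genes were the core subunits, the tissue-restricted isoforms, genes without overlap between the genotypes, the 3 highest and 3 lowest by level, up to 3 per complex with a lower mean, those at 0 in 2 or more libraries, and up to 2 by smallest p from each other list. Single values of some of these genes are not reported here. Other genes, and the roles within complexes, were chosen after their values were seen. Alternatives were other pseudocounts, filters, scalings, terms and weights, and leaving out libraries.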

Additional observations from a re-analysis of the deposited data

Results flagged for a closer look

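In a group of 4 libraries, a value was singled out when its gap to the nearest other value took up nearly the whole range of the group (Dixon's 95% limit). Gap and range were taken on log2(FPKM + 1), while the values of single genes are printed below as FPKM. Of 80 groups examined, 7 held such a value. The limit is set to pass about 1 in 20 groups of independent normal values. These groups share libraries and some hold values listed at 0, so no excess over chance can be read from the count. In FFC 4 these were Atp5a1 at 239 FPKM, Atp5l at 337 FPKM, Ndufa8 at 11.7 FPKM and the mean log2 level of complex I at 5.56, each above the other FFC libraries. In FFC 1, Ndufs1 lay at 0.993 FPKM, below the others. In FF 1, Cox7a1 lay at 24.5 FPKM while the other FF libraries were listed at 0, and in FF 4, Uqcrc2 lay at 24.1 FPKM, below the others.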

How the results depend on the processing

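The median difference of the 81 genes kept its sign under all 20 alternatives, from 0.25 (without FF 2 and FF 4) to 1.29 (without FF 1). Complex medians moved by over 1.5 times without FF 2 and FF 4 (0.46, 0.05, 0.11 and 0.24 for I, III, IV and V), without FF 2 (IV 0.60), FF 3 (III 0.76), FF 4 (III 0.20, V 0.45) or FFC 4 (III 0.24), and with upper-quartile scaling (III 0.24) or quantile normalization (III 0.29). These scalings brought the median of all tested genes from 0.19 to 0.03 and 0.03, and the 81 genes then lay 0.70 and 0.77 above it, against 0.73 as deposited. Leaving out 1 library gave 0 to 1 genes called (1 without FF 1, 1 without FFC 4) and no respiratory gene called. It gave 5 to 21 respiratory genes without overlap and higher in FFC. There were 21 without FF 1, 11 without FF 3 and 9 without FFC 2 or FFC 3. It gave 0 to 2 lower (2 without FFC 4). With fewer libraries there are fewer values to overlap. The matching shares of all tested genes are not given here, so these counts are no result about the respiratory genes. Without FF 2 and FF 4 there were 3 lower, against 6.4% of all tested genes. Of 678 alternative values of 36 named genes, none passed the threshold and 41, in 12 genes, had the opposite direction; the cause was not tested. Replicate numbers did not pair the samples (correlations of deviations -0.05 to 0.03), and the replicate block left the median at 0.92. Opposite directions with FF 2 and FF 4 left out were Atp5f1 0.056, Atp5g3 -0.19, Cox6b2 0.26, Ndufs8 -0.72, Uqcr10 -0.58 and Uqcrc2 -0.023. With month as a term they were Atp5l 0.29, Cox6b2 0.021, Uqcr11 0.094 and Uqcrq 0.11, with a pseudocount of 0.1 Cox7a1 0.36 and Uqcr11 0.52, with upper-quartile scaling Uqcr10 -0.21 and Uqcrc2 -0.027, with quantile normalization Uqcr10 -0.077, and with array weights Uqcr10 -0.17. Leaving out 1 library also turned some directions, with values from Atp5f1 -0.68 to 0.19, Atp5g3 -0.34 to 0.72, Atp5l -0.59 to 0.34, Cox6b2 -0.80 to 0.45, Cox7a1 -0.94 to 1.02, Ndufb2 -1.20 to 0.28, Ndufs1 -0.76 to 0.59, Uqcr10 -0.35 to 0.35, Uqcr11 -1.14 to 0.52, Uqcrc2 -0.070 to 0.32 and Uqcrq -1.01 to 0.26.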
